A study of Mus musculus with 9 samples.

Results

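Acyl-CoA thioesterases are enzymes that split an acyl-CoA into the free fatty acid and coenzyme A. The genes described here are Acot1, Acot2, Acot3, Acot4, Acot6, Acot7, Acot8, Acot9, Acot12, and Acot13. They were chosen by name, with the condition that the gene was above 0 in at least 1 liver, and all 10 of them met it among the 23183 genes in the tables. RNA sequencing of 9 livers from male C57BL/6J mice was analyzed, with 3 mice in each of 3 groups at postnatal day 100 by the sample labels. The ND group was fed a normal diet with 14% fat for 10 weeks, and the HFD group was fed a high-fat diet with 60% fat for 10 weeks. The PRF 50 group was fed the same high-fat diet for 10 weeks and received 50 mg/kg of body weight per day of PRF by mouth during the last 5 weeks. PRF is a fraction rich in polymethoxyflavones that was prepared from leaves of the citrus Jinkyool (Citrus sunki), and it was given in carboxymethyl cellulose. The mice had been without food for 8 h at the end of the experiment. An oral glucose tolerance test was also done on the last day of the experiment. Its timing relative to the collection of the livers is not given in the sources used here. Whether the ND and HFD mice received the carrier alone is not given in the sources used here. A normal diet group given PRF was not analysed here, so an effect of PRF without the high-fat diet cannot be told apart from an effect that needs it.

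Fatty acids are activated to acyl-CoAs before they are oxidized or built into lipids, and thioesterases reverse that step. The free coenzyme A goes back into use and the free acid can leave the compartment, bind a receptor, or be activated again. In the liver, the type I enzymes Acot1 to Acot6 arose by gene duplication and were placed in the cytosol, the mitochondria, and the peroxisomes. The type II enzymes Acot7, Acot8, Acot9, Acot12, and Acot13 share the hotdog fold and are not related to them by sequence. Several type I genes are known targets of the fatty acid receptor PPARα in rodent liver, and they are known to respond to fasting and to dietary fat.

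The type I genes lie side by side on chromosome 12. In GENCODE M21 (GRCm38), the 6 genes of the cluster occupy chr12:83987861-84111349 on the plus strand, a span of 123489 bases. They stand in the order Acot2, Acot1, Acot4, Acot3, Acot5, and Acot6. The type II genes are on other chromosomes, with Acot7 on chromosome 4, Acot8 on chromosome 2, Acot9 on chromosome X, and Acot12 and Acot13 on chromosome 13. Acot3 and Acot4 are overlapped by the antisense gene 4732463B04Rik and by Gm49366, a coding gene on the same strand. Whether the authors counted reads by strand is not given in the sources used here, so the values of Acot3 and Acot4 may include reads of these genes.

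Near-identical copies can also exchange reads. The transcripts of each gene were therefore cut into all windows of 100 bases, the read length of the study, and each window was looked up in the transcripts of all other genes. For Acot1, 87.6% of 3853 windows were found in no other gene, and 359 windows were shared with Acot2. The same 359 windows were 17.1% of those of Acot2, which shared none with any further gene. Acot3 had 84.1% of 3463 windows to itself, and it shared 330 windows with Gm49366 and 214 with 4732463B04Rik. Windows shared with another of the 10 genes were 3.96% of the total in Acot3 and 0.321% in Acot4. With any gene, Acot4 shared 8.24% of 6551 windows, 539 of them with 4732463B04Rik. Acot7 and Acot13 shared no window, and the shared part was 0.950% in Acot6, 0.705% in Acot9, and 1.57% in Acot12. In Acot8, 7.14% of windows were shared, all of them with the overlapping gene Snx21. Acot1 and Acot2 thus share the largest part with another of the 10 genes, and their summed level is given beside the single values below.

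Promoters of the 4 cluster genes on which the results turn are shown here, because their values separated all 3 groups without overlap. RefSeq (GRCm38.p6) gave 300 bases for 8 of the 10 genes, with no entry for Acot6 and Acot13, from 250 bases before to 50 bases after the start. The sequences are written 5′ to 3′ on the plus strand, which is the strand of the genes, in lower case. Capitals mark the half-site AGGTCA of nuclear receptors, or its reverse complement. The motifs searched on both strands were this half-site, its direct repeat with 1 free base between the copies (DR1, the arrangement bound by PPARα with its partner RXR), and a relaxed DR1 in which base 4 of each copy was also free. The half-site is part of the DR1, while a relaxed DR1 need not hold it.
Acot1, chr12:84009252-84009551: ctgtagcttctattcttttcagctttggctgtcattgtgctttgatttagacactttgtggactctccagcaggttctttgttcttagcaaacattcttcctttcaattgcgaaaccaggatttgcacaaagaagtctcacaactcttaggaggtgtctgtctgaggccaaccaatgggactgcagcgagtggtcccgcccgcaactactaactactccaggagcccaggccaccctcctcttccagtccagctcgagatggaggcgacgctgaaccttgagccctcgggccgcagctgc
Acot2, chr12:83987611-83987910: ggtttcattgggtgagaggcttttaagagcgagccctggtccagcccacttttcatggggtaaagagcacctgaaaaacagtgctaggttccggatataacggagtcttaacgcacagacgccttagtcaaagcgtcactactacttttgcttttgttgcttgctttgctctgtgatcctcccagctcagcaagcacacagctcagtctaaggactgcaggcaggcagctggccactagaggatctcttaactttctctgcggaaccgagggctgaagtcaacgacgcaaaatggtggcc
Acot3, chr12:84051894-84052193: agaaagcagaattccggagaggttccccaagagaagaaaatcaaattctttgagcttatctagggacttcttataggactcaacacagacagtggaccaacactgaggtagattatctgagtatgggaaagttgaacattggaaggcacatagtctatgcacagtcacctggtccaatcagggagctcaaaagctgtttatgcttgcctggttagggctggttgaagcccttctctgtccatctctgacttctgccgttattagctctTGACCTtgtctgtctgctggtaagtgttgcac
Acot4, chr12:84038129-84038428: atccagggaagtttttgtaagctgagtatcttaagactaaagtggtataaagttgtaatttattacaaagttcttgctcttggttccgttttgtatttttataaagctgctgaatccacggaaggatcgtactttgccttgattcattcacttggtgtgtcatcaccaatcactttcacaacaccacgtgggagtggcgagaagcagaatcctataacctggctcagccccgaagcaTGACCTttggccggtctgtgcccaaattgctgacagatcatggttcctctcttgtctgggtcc
The half-site was present on the minus strand in Acot3, from 18 bases after the start, and in Acot4, from 13 bases before it. RefSeq gave Acot3 another promoter entry, not printed, in which it begins 11 bases after the start. The windows of Acot1 and Acot2 did not hold these letters. Among the type II genes with an entry, the window of Acot12 held a half-site, and those of Acot7, Acot8, and Acot9 did not. Over all 32851 promoters of this length, 16.3% held a half-site, 0.0396% a DR1, and 0.381% a relaxed DR1. The promoters of the 8 genes held neither form of the repeat. With such low shares, their absence from 8 genes was likely beforehand and carries little information. Looser forms of the repeat and sequence outside these windows were not searched.

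The values are log2(FPKM + 1), where FPKM is fragments per kilobase of transcript scaled by the reads mapped, a level that can be compared between genes. Absolute sequencing depth is unknown. Levels given as FPKM were back-transformed, and a fold change is the difference of group means on the log2(FPKM + 1) scale, which understates the change of low genes. Each comparison was tested with limma over all genes whose mean FPKM in the 6 mice compared was 1 or more. SE is the standard error of the fold change. A gene was called when its Benjamini-Hochberg adjusted p was under 0.05. Of the 10 genes, 9 were tested in all 3 comparisons, and the same 9 reached a mean of 1 FPKM within each group. Acot6 was below the minimum.

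Acot13 and Acot12 had the highest levels in every group. Acot13, a small mitochondrial thioesterase for long-chain acyl-CoAs, had a mean of 105 ± 12.2 FPKM in ND, 120 ± 14.9 in HFD, and 84.7 ± 6.48 in PRF 50 (SD, n = 3). Acot12, a cytosolic enzyme that hydrolyzes acetyl-CoA, was second with 44.6 ± 3.999, 59.2 ± 4.59, and 44.8 ± 6.35 FPKM. The order of the other genes depended on the group. In HFD livers, Acot3 (47.4 FPKM) and Acot4 (39.8 FPKM) ranked 3 and 4, ahead of Acot1 (26.7), Acot8 (15.4), Acot7 (11.9), Acot2 (9.96), Acot9 (3.18), and Acot6 (0.621). In ND livers, Acot1 (16.2 FPKM), Acot4 (14.6), Acot8 (14.003), and Acot7 (12.1) were close to each other, and the SD of Acot1 alone was 4.88. Acot3 ranked 7 there with 9.82 ± 4.10 FPKM. In PRF 50 livers, Acot8 (11.7 FPKM) and Acot7 (9.42) ranked 3 and 4, and Acot3 (1.62) ranked 8, next to Acot2 (1.49), with the order of this pair reversed in mouse 10.

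**Figure D1:**
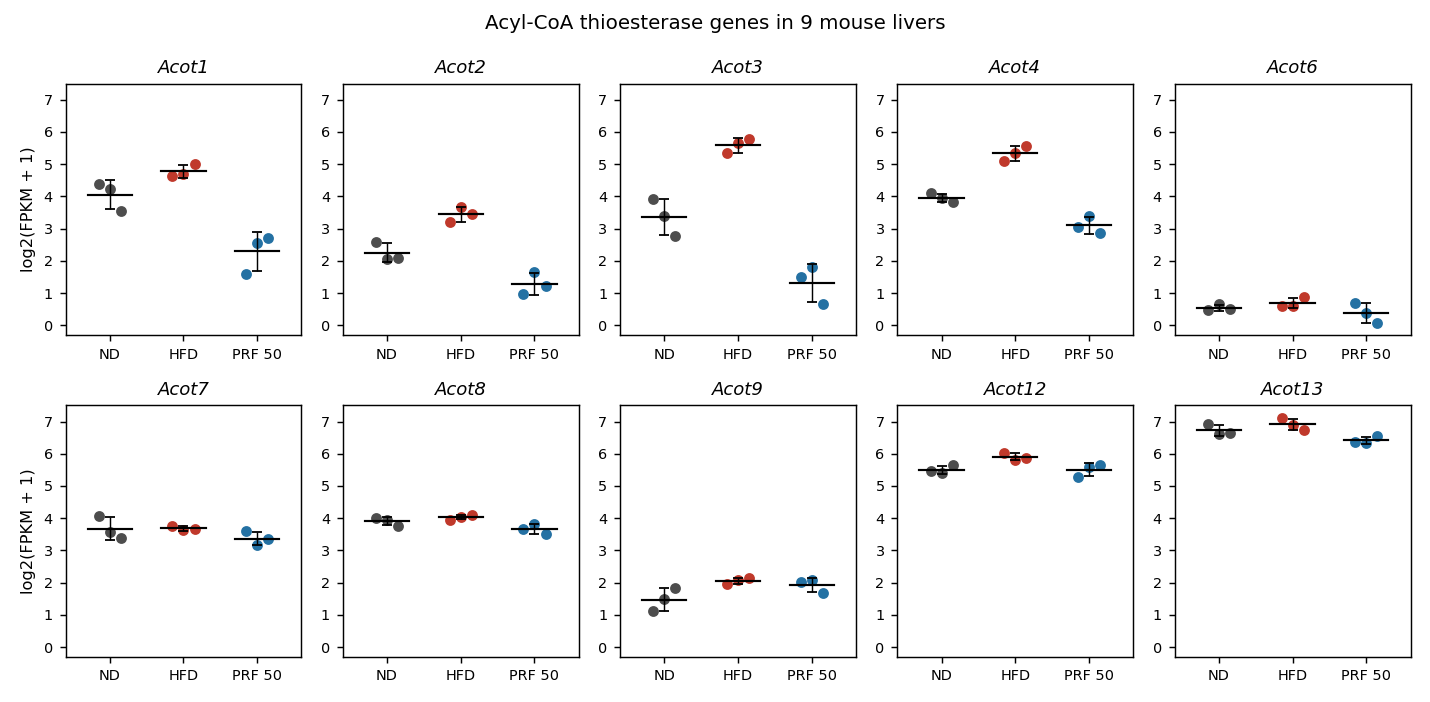
Values of 10 acyl-CoA thioesterase genes in the livers of ND, HFD, and PRF 50 mice. Each point is 1 liver on a log2(FPKM + 1) axis, lines and bars are the group mean and SD (n = 3), and Acot1, Acot2, Acot3, and Acot4 are highest in HFD and lowest in PRF 50, with no overlap between any of the groups.

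The members were summed in each liver to describe the level of the family as a whole, without a test. The 10 genes together reached 336, 330, and 337 FPKM in HFD mice 1, 2, and 3. The sums were 249.9, 212, and 206 FPKM in ND mice 6, 7, and 9, and 158, 171, and 177 FPKM in PRF 50 mice 3, 9, and 10. The groups did not overlap, with HFD highest and PRF 50 lowest. The HFD livers were close to each other (334 ± 3.73 FPKM; SD, n = 3), while their parts differed more.

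Among the compartments, only the peroxisomal share of the summed level separated all 3 groups without overlap, and no share was tested. The peroxisomal genes Acot3, Acot4, Acot6, and Acot8 made up 17.4 ± 1.54% of the sum in ND, 30.9 ± 4.29% in HFD, and 12.7 ± 2.63% in PRF 50 livers. Those of the mitochondria (Acot2, Acot9, and Acot13) made up 49.8 ± 1.23%, 39.9 ± 4.204%, and 52.8 ± 2.39%. In absolute terms the mitochondrial sum was 133 ± 13.7 FPKM in HFD livers and 111 ± 12.7 in ND livers, so it was not smaller in HFD. The cytosolic pair Acot1 and Acot7 gave 12.6 ± 2.46%, 11.5 ± 1.07%, and 8.06 ± 0.449%, and Acot12 gave 20.2 ± 3.32%, 17.7 ± 1.29%, and 26.4 ± 2.31%. The 5 cluster genes Acot1, Acot2, Acot3, Acot4, and Acot6 summed to 124 ± 18.4 FPKM in HFD, 44.9 ± 11.03 in ND, and 15.3 ± 3.55 in PRF 50 livers. Their share was 37.2 ± 5.41%, 20.03 ± 3.25%, and 9.05 ± 1.94%, and it also separated the 3 groups without overlap.

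**Figure D2:**
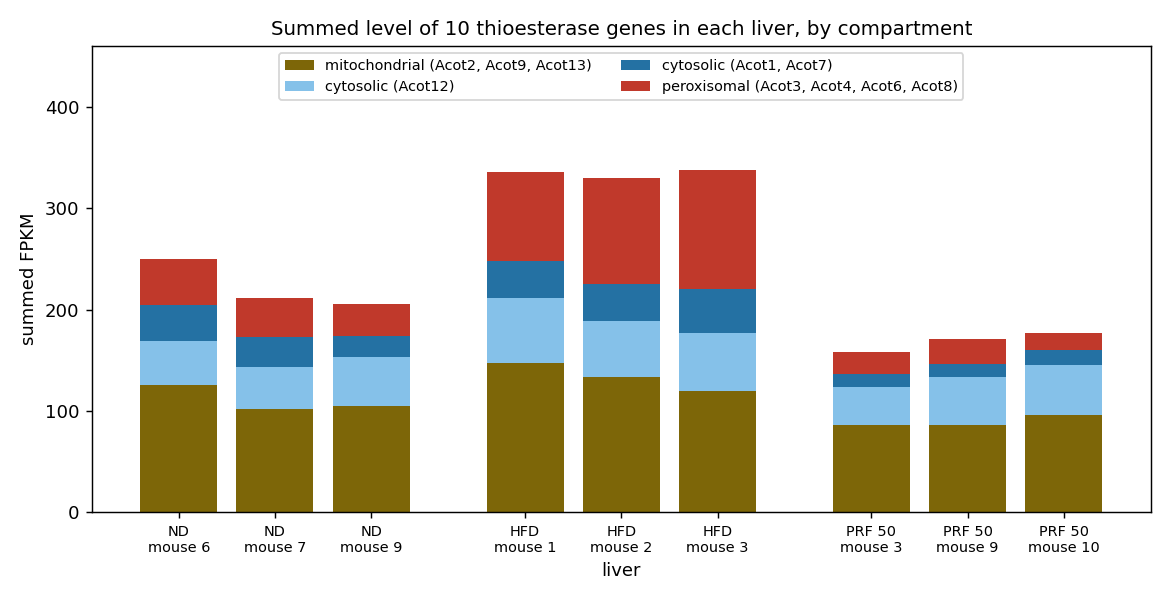
Summed FPKM of 10 acyl-CoA thioesterase genes in each of 9 livers, stacked by the compartment of the enzyme. The peroxisomal part is 88.0 to 117 FPKM in HFD livers, 32.2 to 45.6 in ND livers, and 17.3 to 25.4 in PRF 50 livers.

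The first comparison, HFD against ND, asks what the high-fat diet did to these genes. Acot2, Acot3, and Acot4 were upregulated, 3 of the 9 tested genes, where 0.702% of all 9978 tested genes were called higher and 0.631% lower. The 3 HFD mice were above the 3 ND mice in 6 of the 9 genes, against 10.7% of all tested genes, while 10.02% of all tested genes were below without overlap. The median log2 fold change was 0.58 over the 9 genes and -0.01 over all tested genes.

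The next comparison, PRF 50 against HFD, asks what PRF did on the high-fat diet. Acot1, Acot2, Acot3, and Acot4 were downregulated, 4 of the 9 tested genes, where 2.16% of all 10084 tested genes were called lower and 1.43% higher. The PRF 50 mice were below the HFD mice in 8 of the 9 genes, with Acot9 as the exception, against 15.3% of all tested genes. In the other direction, 10.9% of all tested genes were above without overlap. The median log2 fold change was -0.50 over the 9 genes and -0.02 over all tested genes.

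The last comparison sets PRF 50 livers against ND livers and so differs in both diet and PRF. None of the 9 genes was called by limma, where 0.298% of all 10051 tested genes were called lower and 0.159% higher. The smallest adjusted p of a thioesterase gene was 0.0690. At an unadjusted p under 0.05, 5 of the 9 genes passed, all with lower values in PRF 50, compared with 12.5% of all tested genes in either direction. The same 5 genes, Acot1, Acot2, Acot3, Acot4, and Acot13, were below the ND mice without overlap, against 11.8% of all tested genes below and 8.19% above. The 3 comparisons share mice, since each group enters 2 of them, so their values are given side by side and not as separate evidence.

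**Figure D3:**
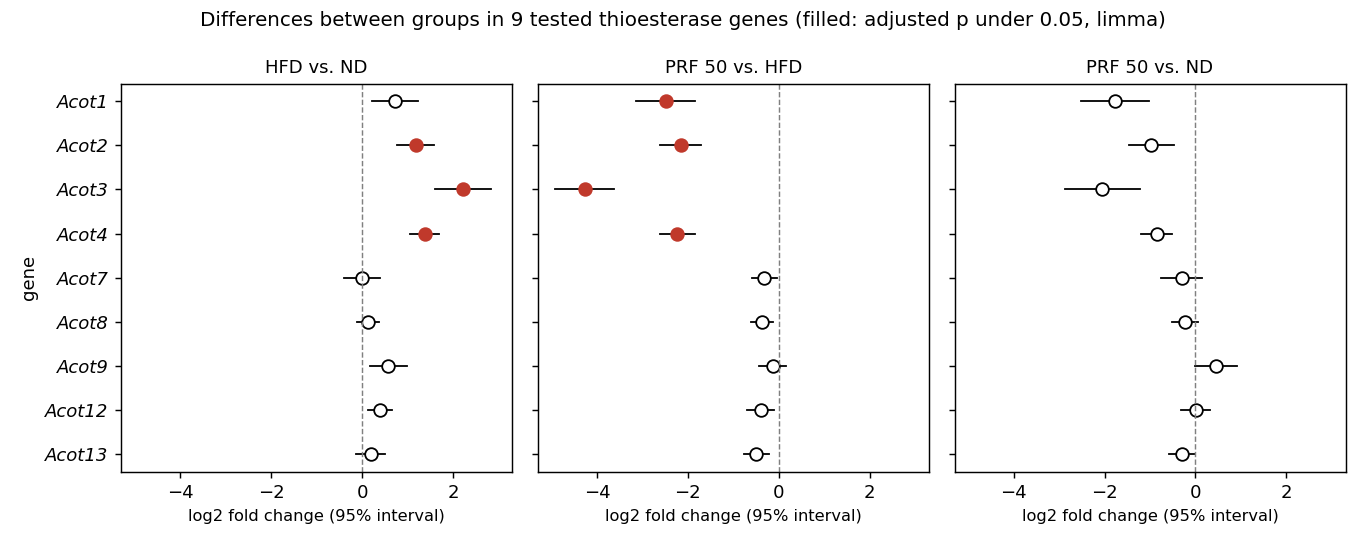
Log2 fold changes of 9 acyl-CoA thioesterase genes in 3 comparisons, with 95% intervals from limma. Filled points had an adjusted p under 0.05, which holds for 3 genes in HFD against ND, 4 genes in PRF 50 against HFD, and none in PRF 50 against ND.

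Acot3 showed the widest range of the family on the log2 scale, from 0.65 to 5.77. It encodes a peroxisomal thioesterase for medium- to long-chain acyl-CoAs. Its levels were 39.4, 49.1, and 53.6 FPKM in HFD mice 1, 2, and 3. The ND mice 6, 7, and 9 had 14.03, 9.59, and 5.85 FPKM, and the PRF 50 mice 3, 9, and 10 had 1.82, 2.48, and 0.571 FPKM. Every HFD mouse was above every ND mouse, and every ND mouse was above every PRF 50 mouse. The log2 fold change was 2.22 in HFD against ND (SE 0.26; limma, adjusted p = 0.0114), a 4.82-fold difference of the mean FPKM. Between PRF 50 and HFD it was -4.27 (SE 0.28; limma, adjusted p = 0.00162), with the mean FPKM 29.2-fold lower. PRF 50 against ND gave -2.05 (SE 0.35; limma, adjusted p = 0.0690), with lower values in 3 of 3 mice. The call against ND was lost without HFD mouse 3 (adjusted p = 0.0537 from limma), without ND mouse 7 (0.0516), and without the minimum level (0.0507). The adjusted p over the alternatives ran from 0.00585 to 0.0537. The PRF 50 to ND difference was called without ND mouse 9 (log2 fold change -2.34, adjusted p = 0.0414 from limma) and with all 9 mice in 1 fit (0.0267), within a range of up to 0.212.

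Acot4, the peroxisomal enzyme for succinyl-CoA, varied less between ND livers than Acot1, Acot2, and Acot3. Its SD was 0.13 on the log2 scale against 0.45, 0.30, and 0.57. Acot4 had 33.5, 39.4, and 46.3 FPKM in HFD mice 1, 2, and 3 and 16.1, 14.3, and 13.3 FPKM in ND mice 6, 7, and 9. The PRF 50 mice 3, 9, and 10 had 7.26, 9.44, and 6.36 FPKM. The groups were fully separated, in the same order as for Acot3. The log2 fold change was 1.38 in HFD against ND (SE 0.14; limma, adjusted p = 0.00633) and -2.23 in PRF 50 against HFD (SE 0.16; limma, adjusted p = 0.00243). Both calls held in each of the 13 alternatives run for this gene. PRF 50 against ND gave -0.85 (SE 0.15; limma, adjusted p = 0.0690), and it was called with all 9 mice in 1 fit (0.0368), within a range of up to 0.212.

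Acot6 and Acot8 complete the peroxisomal genes. Acot6, which acts on the branched chains of phytanoyl- and pristanoyl-CoA, had 0.510, 0.524, and 0.829 FPKM in HFD mice 1, 2, and 3. The ND mice 6, 7, and 9 had 0.385, 0.577, and 0.413 FPKM, and the PRF 50 mice 3, 9, and 10 had 0.621, 0.302, and 0.0529 FPKM. These low levels overlapped between all groups. Without the minimum level, the log2 fold changes of Acot6 were 0.15, -0.31, and -0.16 in the 3 comparisons (adjusted p from 0.439 to 0.737, limma). Acot8, the broad type II enzyme of peroxisomes, ranged from 10.3 to 16.2 FPKM over the 9 livers. Its values in PRF 50 mice (11.8, 13.1, and 10.3 FPKM) were below those in HFD mice (14.5, 15.6, and 16.2 FPKM) without overlap, and the ND mice (15.03, 14.4, and 12.6 FPKM) overlapped both. Its log2 fold change of -0.37 in PRF 50 against HFD was not called (SE 0.10; limma, adjusted p = 0.103; 95% interval -0.62 to -0.13). It was 0.13 in HFD against ND and -0.24 in PRF 50 against ND (adjusted p = 0.592 and 0.469 from limma).

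Acot2 is the mitochondrial long-chain enzyme of the cluster, and Acot1 is its close copy in the cytosol. In Acot2, the HFD mice 1, 2, and 3 had 8.29, 11.7, and 9.95 FPKM, and the ND mice 6, 7, and 9 had 5.06, 3.20, and 3.305 FPKM. Levels in the PRF 50 mice 3, 9, and 10 were 0.965, 2.18, and 1.33 FPKM. No group overlapped another, and the PRF 50 livers were the lowest. The log2 fold change was 1.18 in HFD against ND (SE 0.18; limma, adjusted p = 0.0240) and -2.16 in PRF 50 against HFD (SE 0.19; limma, adjusted p = 0.00711). PRF 50 against ND gave -0.97 (SE 0.21; limma, adjusted p = 0.110). The call against ND was lost without HFD mouse 2 (adjusted p = 0.0913 from limma), HFD mouse 3 (0.0974), ND mouse 7 (0.103), or ND mouse 9 (0.0601), and without the minimum level (0.0903). The lowest value over the alternatives was 0.0232.

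For Acot1, the levels were 23.6, 25.2, and 31.4 FPKM in HFD mice 1, 2, and 3 and 20.0, 17.9, and 10.7 FPKM in ND mice 6, 7, and 9. In PRF 50 mice 3, 9, and 10, they were 2.04, 4.94, and 5.51 FPKM. The HFD and ND mice were separated by a small gap, and the PRF 50 mice were far below both. Acot1 fell by 2.49 on the log2 scale in PRF 50 against HFD (SE 0.28; limma, adjusted p = 0.0147), a 6.42-fold lower mean FPKM. This call was lost without HFD mouse 2 (adjusted p = 0.0537 from limma) or HFD mouse 3 (0.0529), and the lowest value over the alternatives was 0.00377. In HFD against ND the log2 fold change was 0.73 (SE 0.22; limma, adjusted p = 0.190), with higher values in 3 of 3 mice. It was 0.47 without ND mouse 9, the lowest of the alternatives, which ran up to 0.89. Its difference in PRF 50 against ND was -1.77 (SE 0.32; limma, adjusted p = 0.0738), called only with all 9 mice in 1 fit (0.0311) among the 13 alternatives, within a range of up to 0.242. The sum of Acot1 and Acot2, which a division of shared reads between these copies affects less, was 31.9, 36.9, and 41.3 FPKM in the HFD mice. It was 25.0, 21.1, and 13.98 FPKM in the ND mice and 3.01, 7.12, and 6.84 FPKM in the PRF 50 mice, again without overlap.

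The other mitochondrial genes differed less. Acot9, a mitochondrial type II enzyme, had 2.89, 3.21, and 3.42 FPKM in HFD mice 1, 2, and 3 and 1.16, 1.82, and 2.55 FPKM in ND mice 6, 7, and 9. The PRF 50 mice 3, 9, and 10 had 3.05, 3.24, and 2.24 FPKM. PRF 50 overlapped both other groups, and its mean stood nearer to that of HFD. For Acot9, the log2 fold change was 0.58 in HFD against ND (SE 0.18; limma, adjusted p = 0.195), -0.13 in PRF 50 against HFD (0.13, 0.632), and 0.45 in PRF 50 against ND (0.20, 0.404). Its 95% interval in PRF 50 against HFD was -0.43 to 0.17, which does not reach the changes of the 4 cluster genes. In Acot13, the levels were 136, 119, and 106 FPKM in HFD mice 1, 2, and 3 and 119, 97.4, and 98.6 FPKM in ND mice 6, 7, and 9. The PRF 50 mice 3, 9, and 10 had 81.7, 80.3, and 92.1 FPKM, below all other mice. For Acot13, the log2 fold change in PRF 50 against HFD was -0.50 and was not called (SE 0.12; limma, adjusted p = 0.0688). PRF 50 against ND gave -0.30 (SE 0.13; limma, adjusted p = 0.384), and HFD against ND gave 0.19 with overlapping mice (SE 0.14; limma, adjusted p = 0.558).

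Among the cytosolic genes, Acot7 and Acot12 were not called in any comparison. Acot7, a long-chain enzyme best known from brain, had 12.6, 11.4, and 11.7 FPKM in HFD mice and 15.8, 11.003, and 9.42 FPKM in ND mice. The HFD values lay inside the ND range, and the log2 fold change was 0.01 (SE 0.17, 95% interval -0.39 to 0.40). On the FPKM scale the ND mean was the higher of the pair, 12.1 against 11.9. In PRF 50 mice, Acot7 had 11.1, 7.97, and 9.20 FPKM, with a log2 fold change of -0.31 against HFD that was not called (SE 0.12; limma, adjusted p = 0.201). Against ND it was also -0.31, with overlap (SE 0.19; limma, adjusted p = 0.539). Acot12 had 64.3, 55.5, and 57.7 FPKM in HFD mice, 43.3, 41.4, and 49.1 FPKM in ND mice, and 37.5, 47.4, and 49.4 FPKM in PRF 50 mice. The HFD mice were above all other mice, and the ND and PRF 50 mice overlapped. Neither the difference of 0.40 in HFD against ND (SE 0.11; limma, adjusted p = 0.158) nor that of -0.40 in PRF 50 against HFD (SE 0.12; limma, adjusted p = 0.129) was called. The ND and PRF 50 means of Acot12 were 5.51 and 5.51 on the log2 scale, with a 95% interval of the difference from -0.31 to 0.32.

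The livers were checked against cell markers fixed by name. Of 10 hepatocyte markers, albumin (Alb) is listed at 0 in all 9 livers, as a table entry that cannot be read as its level. The other 9 summed to between 18691 and 28140 FPKM in all livers, with Apoa1 as the most abundant, and their median log2 fold change in PRF 50 against HFD was -0.00. The 10 Kupffer cell and macrophage markers were highest in the group in which the cluster genes were lowest. They summed to 614, 373, and 397 FPKM in PRF 50 mice 3, 9, and 10, to 114, 179, and 181 FPKM in HFD mice 1, 2, and 3, and to 93.1, 176, and 219 FPKM in ND mice 6, 7, and 9. All 10 were above 0, and Cd5l was the most abundant. PRF 50 against HFD gave 9 of the 10 called higher, against 1.43% of all tested genes, and a median log2 fold change of 1.43. Without HFD mouse 3, only 4 of all tested genes were called higher, so the count of 9 cannot hold there. PRF 50 against ND gave none called by limma, against 0.159% of all tested genes called higher, and a median of 1.40. At an unadjusted p under 0.05, all 10 passed there, against 12.5% of all tested genes. HFD against ND gave none called by limma, against 0.702% of all tested genes called higher, and a median of 0.03. At an unadjusted p under 0.05, 0 passed there, against 15.1% of all tested genes. The part of these marker cells in the lower thioesterase values of PRF 50 livers was not tested. In bulk tissue, fewer cells of a type and less RNA per cell cannot be told apart, which holds for each value given here. Among the ND mice, mouse 9 had the highest marker sum and the lowest sum of the 5 cluster genes (33.5 FPKM), and mouse 6 had the lowest marker sum and the highest cluster sum (55.6 FPKM). The PRF 50 mice had the same inverse order, with mouse 3 highest in the marker sum and lowest in the cluster sum (12.7 FPKM) and mouse 9 lowest and highest (19.3 FPKM). In the HFD mice, mouse 3 was highest and mouse 1 lowest in both sums.

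**Figure D4:**
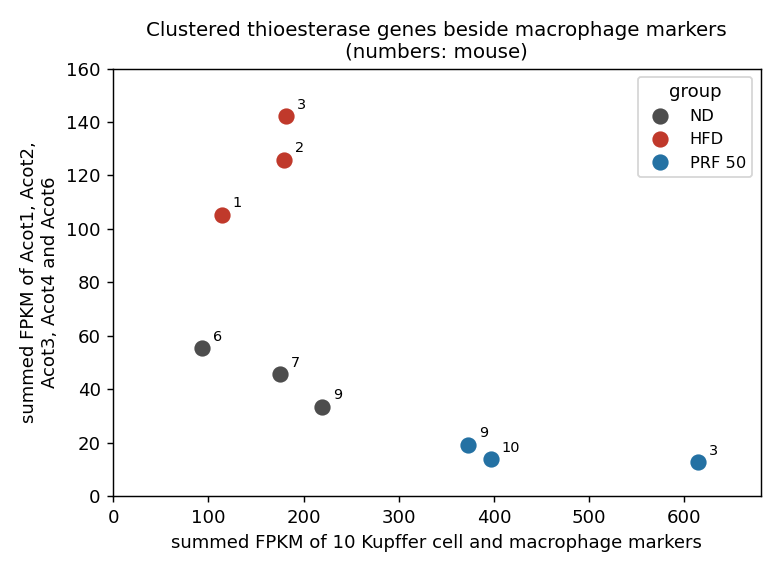
Summed FPKM of Acot1, Acot2, Acot3, Acot4, and Acot6 against summed FPKM of 10 Kupffer cell and macrophage markers in 9 livers, numbered by mouse. HFD livers have 105 to 142 FPKM and ND livers 33.5 to 55.6 FPKM of the cluster genes at like marker sums, and PRF 50 livers have 12.7 to 19.3 FPKM at marker sums of 373 to 614 FPKM.

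Markers of other cell types were summed in the same way. Endothelial markers (5 genes, led by Clec4g) summed to 14.9 FPKM in HFD mouse 1 and 36.0 to 65.3 FPKM in the other livers, stellate cell and fibroblast markers (6 genes, led by Dcn) to 60.1 to 129 FPKM, and cholangiocyte markers (5 genes, led by Spp1) to 25.6 to 41.5 FPKM. In HFD against ND, 2 of the 6 stellate cell and fibroblast markers were above without overlap, against 10.7% of all tested genes. In PRF 50 against HFD, 2 of the 6 were below without overlap, against 15.3%. The other 4 had higher means in PRF 50 there, and the median log2 fold change of the 6 was 0.12. In PRF 50 against ND, all 5 tested markers of this list had higher means in PRF 50, with a median of 0.43. The part of these cells in the thioesterase values was not tested. Lymphocyte markers summed to at most 4.05 FPKM and skeletal muscle markers to at most 0.831 FPKM. The adipocyte markers Plin1 and Lep, the kidney marker Kap, and the pancreas markers Cpa1 and Prss2 are listed at 0 in all livers. The adipocyte marker Cfd reached 13.4 FPKM in HFD mouse 3 and 6.29 FPKM in HFD mouse 2. Adipoq, another adipocyte marker, reached at most 0.35 on the log2 scale and was above 0 only in HFD mice 2 and 3. These are also the mice with the highest Acot3 and Acot4 among the HFD livers, and the part of fat tissue in their values was not tested. Cela1, the other pancreas marker, was at 14.7 to 43.7 FPKM in all livers, with the PRF 50 mice above the ND mice without overlap, and kidney markers did not exceed 0.0301 FPKM.

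The genes most like each thioesterase were sought by Pearson's r over the 9 livers, among 10039 other genes whose mean reached 1 FPKM. The livers form 3 groups, so r includes the group differences, and it is a description only. Acot4 was most like Aldh3a2 (r = 0.99), the fatty aldehyde dehydrogenase, followed by the lipid droplet coat gene Plin4 (0.98) and the peroxisome division gene Pex11a (0.98). With the group means removed, r of Acot4 and Aldh3a2 was 0.98, and that of Acot4 and Pex11a was 0.70. Among the 3 genes most like Acot3 were Aldh3a2 and Plin4 (0.97 each), and among those most like Acot2 were Sec24a (0.99) and Eci1 (0.98). Acot1 had other neighbours, with Mrpl39 (0.98), Ppp2r2d (0.97), and Abhd6 (0.97).

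Of the genes outside the cluster, Acot13 was most like Ndufa9 (0.99), a subunit of respiratory complex I, Nipsnap3b (0.98), and Atg3 (0.97), and Acot7 was most like Tmbim4 (0.97), Fis1 (0.96), and Mrpl11 (0.96). Acot8 was nearest to Sec14l2 (0.98), Rnf24 (0.97), and the peroxisomal membrane gene Pxmp4 (0.96). Acot9 was nearest to Zfp518a (0.97), Abhd2 (0.97), and Ap3s2 (0.96), and Acot12 to Wwp1 (0.96), Ptgr2 (0.96), and Srp54a (0.95).

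Between the thioesterase genes themselves, r over the 9 livers was 0.99 for Acot3 and Acot4, 0.98 for Acot2 and Acot4, and 0.89 for Acot1 and Acot4. With the group means removed these became 0.83, 0.70, and 0.38. Acot8 followed Acot3 within the groups as well (0.97 with the group means removed, 0.92 before). Acot9 and Acot13 went in opposite directions within the groups (-0.80), where over all livers r was -0.20.

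Thioesterase genes outside the 10 were looked at next. Of 13 such genes, 9 were tested, and Acnat2, a peroxisomal acyltransferase of the bile acid conjugating family, was the 1 called higher in HFD against ND (0.702% of all tested genes), from 2.58 to 4.54 on the log2 scale (difference 1.96, SE 0.21; limma, adjusted p = 0.00731). The median of the 9 was 0.28, and 6 of them passed an unadjusted p under 0.05, against 15.1% of all tested genes. For PRF 50 against HFD, none of the 9 was called by limma and 4 passed an unadjusted p under 0.05, against 20.2% of all tested genes, with a median log2 fold change of -0.31. Acnat2 had a difference of -1.05 there (SE 0.35; limma, adjusted p = 0.156). Acot5, in the same cluster as Acot3, is listed at 0 in 7 of 9 livers and reached at most 0.28 on the log2 scale. Acot10 is listed at 0 in all livers.

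The thioesterases work against the acyl-CoA synthetases, which make their substrates. Of 15 tested synthetase genes, none was called by limma in HFD against ND (6 at an unadjusted p under 0.05, against 15.1% of all tested genes; median log2 fold change 0.06). With PRF, 3 were called lower against HFD, namely Acsl1 (-1.11), Acss3 (-2.35), and Acsf3 (-0.51), against 2.16% of all tested genes, and the median was -0.27. Of 17 genes of coenzyme A supply and removal and acyl-CoA binding, Vnn1 and Crat were called higher in HFD against ND and lower in PRF 50 against HFD (0.702% and 2.16% of all tested genes). Vnn1, a pantetheinase that yields a building block of coenzyme A, had log2 fold changes of 1.40 in HFD against ND (adjusted p = 0.00731 from limma) and -1.66 in PRF 50 against HFD (adjusted p = 0.0147 from limma). For Crat, which moves acyl groups to carnitine, these were 1.17 and -1.52. The median over the 17 genes was 0.07 in HFD against ND and -0.21 in PRF 50 against HFD.

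Genes of fatty acid oxidation in the compartments of the thioesterases gave the following counts. Of 19 peroxisomal β-oxidation genes, 2 were called higher in HFD against ND, against 0.702% of all tested genes, among them Pex11a (0.97), and the median log2 fold change was 0.26. For PRF 50 against HFD, 7 were called lower, against 2.16% of all tested genes, with a median of -0.46, namely Pex11a (-1.77), Acaa1b (-1.76), Abcd2 (-1.20), Ehhadh (-1.05), Ech1 (-0.77), Abcd3 (-0.71), and Hsd17b4 (-0.60). Of 20 genes of mitochondrial β-oxidation and ketogenesis, Hadh (0.71) and Cpt1a (0.60) were called higher in HFD against ND, against 0.702% of all tested genes, with a median of 0.35. For PRF 50 against HFD, 11 of the 20 were called lower, against 2.16% of all tested genes, with a median of -0.54. Among them were Acadm (-0.81), Eci1 (-0.80), Slc25a20 (-0.76), Hadh (-0.75), Decr1 (-0.71), Bdh1 (-0.68), Etfdh (-0.60), Acadl (-0.54), and Hadha (-0.49). Each of the changes named here for PRF 50 against HFD was smaller than those of Acot1, Acot2, Acot3, and Acot4 in the same comparison. Without HFD mouse 3, only 11 of all tested genes were called lower there, Acot2, Acot3, and Acot4 among them. The list counts were not recomputed with mice left out. The mitochondrial count of 11 cannot hold without that mouse, because its list does not include these Acot genes. Whether the peroxisomal count of 7 holds there is not known.

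Omega-oxidation turns fatty acids into dicarboxylic acids. Of its 12 tested genes, Cyp4a14 (1.76) and Aldh3a2 (0.90) were called higher and Cyp4a12b (-3.64) lower in HFD against ND, where 0.702% and 0.631% of all tested genes were called, with a median of -0.03. PRF 50 against HFD had Cyp4a14 (-5.36), Cyp4a10 (-4.05), and Aldh3a2 (-1.44) called lower, against 2.16% of all tested genes, with a median of -0.52. The Cyp4a genes are close copies of each other, so their single values may be uncertain too, but their shared windows were not measured. Of 14 tested lipid-sensing factors, none was called by limma in HFD against ND (5 at an unadjusted p under 0.05, against 15.1% of all tested genes; median 0.15), and Ppara had 5.65 in ND, 6.24 in HFD, and 5.72 in PRF 50 on the log2 scale. Its difference was 0.59 in HFD against ND (adjusted p = 0.0521 from limma) and -0.52 in PRF 50 against HFD (adjusted p = 0.0830 from limma). Pparg was the 1 called lower in PRF 50 against HFD (-1.25; 2.16% of all tested genes), where the median of the 14 was -0.13.

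In PRF 50 against ND, where no thioesterase of the 10 was called, 4 genes of these lists were called lower, against 0.298% of all tested genes. They were Cyp4a12b (-2.28), Acaa1b (-1.32), Ehhadh (-1.16), and Pparg (-1.12). The medians were -0.31 for the 9 thioesterase genes, 0.10 for the other thioesterase genes, -0.14 for the synthetases, -0.15 for the coenzyme A genes, -0.22 for peroxisomal β-oxidation, -0.54 for omega-oxidation, -0.22 for mitochondrial β-oxidation and ketogenesis, 0.06 for the lipid-sensing factors, and -0.03 for all tested genes.

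**Figure D5:**
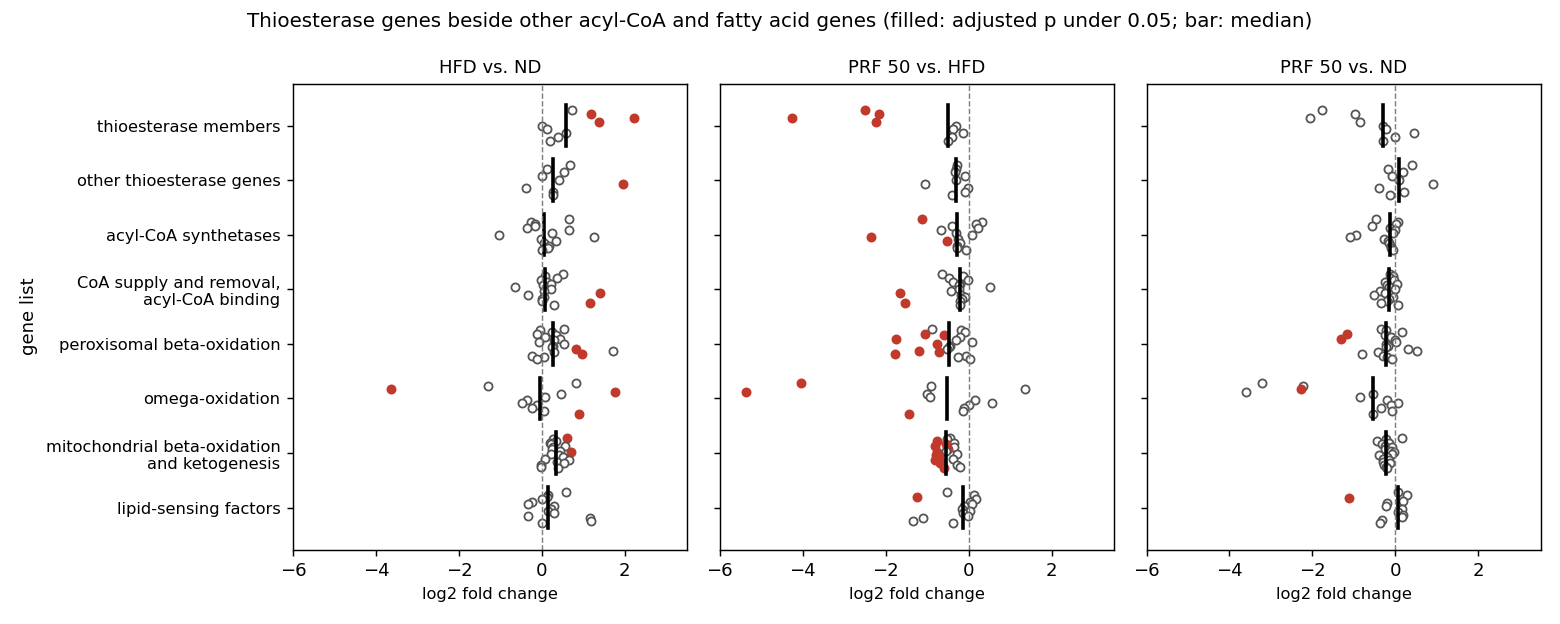
Log2 fold changes of the acyl-CoA thioesterase genes and of 7 lists of related genes in 3 comparisons, with 1 point for each tested gene and a bar at the median. Filled points had an adjusted p under 0.05 in limma, and in PRF 50 against HFD the 4 filled thioesterase genes lie between -4.27 and -2.16.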

How the data were processed

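Liver RNA of 9 mice was sequenced after poly(A) selection with a directional kit and paired reads of 100 bases. TopHat and mm10 are named in the submitters' processing notes, and Cufflinks gave FPKM, scaled between samples by a geometric method of the authors. They deposited log2 values for each gene symbol. The pseudocount of 1 is inferred from a lowest value of 0. Absolute depth is unknown, and relative depth read from low values was 0.963 to 1.60 times that of HFD mouse 1. No pair of livers held identical values.

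From the deposited log2 values, limma 3.58.1 (R 4.3.3; lmFit, eBayes with trend) compared each pair of groups over genes whose mean reached 1 FPKM, with Benjamini-Hochberg adjustment over all of them. The script was tested on simulated data. Alternatives were a fit of all 9 mice, leaving out each mouse, a pseudocount of 0.1, no minimum or one of 10 FPKM, no trend, quantile normalization, and median-of-ratios scaling. The genes named are all 10 thioesterases, and others taken from the genes of the fixed lists with an adjusted p under 0.05 in at least 1 comparison (at most 30 per comparison, largest change first), and the 3 genes most like each tested thioesterase. Positions and transcripts are from GENCODE M21, promoters from RefSeq. Figures were drawn with matplotlib 3.10.9. The thioesterase genes and the lists were chosen with earlier results of these data known. Outside this rule, Ppara, Acot5, and Acot10 were named with their values seen. Markers of the fixed cell type lists were named as the most abundant or as listed at 0. Cela1 was named as the only pancreas marker above 0, and Adipoq as the adipocyte marker above 0 besides Cfd.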

Additional observations from a re-analysis of the deposited data

How the results depend on the processing

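Of the log2 fold changes of the 9 thioesterase genes, recomputed under each alternative, none in PRF 50 against HFD changed its direction, and Acot1 alone lost its call, without HFD mouse 2 or 3. The number of thioesterase genes called in HFD against ND was 3, and it was 1 without the minimum level, where more genes are tested, and from 1 to 3 on leaving out each mouse. In PRF 50 against HFD it was 4, and from 3 to 4 on leaving out each mouse. In PRF 50 against ND it was 0, but 3 with all 9 mice in 1 fit, and from 0 to 1 on leaving out each mouse. The cause was not tested.

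Reversed values were all near 0 and uncalled, and each left out 1 mouse. The log2 fold change of Acot7 in HFD against ND ranged from -0.14 to 0.20 (-0.03 without HFD mouse 1, -0.04 without ND mouse 7, -0.14 without ND mouse 9). That of Acot12 in PRF 50 against ND ranged from -0.07 to 0.12 (-0.02 without ND mouse 6, -0.05 without ND mouse 7, -0.04 without PRF 50 mouse 9, -0.074 without PRF 50 mouse 10). Other small uncalled differences kept their direction, but their size depended on the mouse left out. Acot9 ranged from -0.20 to -0.01 in PRF 50 against HFD and from 0.27 to 0.63 in PRF 50 against ND. In HFD against ND, Acot8 ranged from 0.07 to 0.18 and Acot13 from 0.10 to 0.29. In PRF 50 against ND, Acot7 ranged from -0.46 to -0.11 and Acot8 from -0.32 to -0.15. Acot13 was -0.15 there with quantile normalization. The summed level of the 10 genes in HFD livers was 334 FPKM, and 327 FPKM with quantile normalization, a move larger than its SD of 3.73. Leaving out each mouse gave 333 to 336 FPKM in HFD, 209 to 231 FPKM in ND, and 165 to 174 FPKM in PRF 50.

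The number of all genes called depended on the mice and the minimum. It was 133 in HFD against ND, but 37 without the minimum and 35 to 140 on leaving out each mouse. For PRF 50 against HFD it was 362, but 126 without the minimum, 245 with quantile normalization, and 15 to 242 on leaving out each mouse. For PRF 50 against ND it was 46, but 107 with all 9 mice, 11 without the minimum, and 4 to 71 on leaving out each mouse. With a minimum of 10 FPKM, Acot2 and Acot9 were not tested in any comparison and Acot3 was not tested in PRF 50 against ND. No paired analysis was possible because each pair of groups shares at most 1 mouse number, and the numbers name animals. With 3 mice a group, modest differences of low genes are not detectable.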
